A study of Saccharomyces cerevisiae with 22 samples.

Results

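The cytosolic ribosomal protein genes of budding yeast were followed through 12 expression profiles of mutants in RNA polymerase II transcription, termination and nuclear RNA decay. A gene was a member if its symbol was RPL or RPS with a number and an optional A or B, or if it was one of the stalk genes RPP0, RPP1A, RPP1B, RPP2A and RPP2B. The rule found 125 members among the 6373 features tested, of which RPL35A and RPL9B had 2 probes each and the others 1. They comprised 67 genes of the large subunit, 53 of the small subunit and 5 of the stalk, and 48 A and B pairs had both genes measured. The RefSeq table of genome assembly R64 lists 137 genes that meet the rule, and 12 of them were not analysed here.

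Ribosomal proteins surround and stabilise the ribosomal RNA of both subunits. Most of them are encoded in yeast by a pair of genes, named A and B, that make identical or nearly identical proteins, and the members of this class are transcribed together at very high rates in growing cells under the control of Rap1, Fhl1, Ifh1 and Sfp1. They hold a large share of the intron-containing genes of yeast. Because RP genes (ribosomal protein genes) are so active, their mRNAs are among the most abundant in the cell, which makes them the brightest spots on an expression array.

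Each array set RNA from 1 mutant culture against a common wild type reference pool, labelled with Cy3 and Cy5. Of the 22 arrays, 18 held cells grown in synthetic complete medium (SC) and 4 held cells grown in rich medium (YPD). The SC profiles were set2-del, lacking the histone H3 lysine 36 methyltransferase, eaf3-del and rco1-del, lacking subunits of the Rpd3S histone deacetylase, and rtt103-del, lacking a termination factor that binds the phosphorylated tail of the polymerase. They also included rrp6-del and lrp1-del, lacking the nuclear exosome nuclease and its cofactor, the temperature-sensitive alleles pcf11-mut-ts-2, pcf11-mut-ts-ts2 and sen1-mut-ts-1 of a cleavage factor and of a helicase for termination of short transcripts, and ctk1-del, lacking the kinase of serine 2 in the polymerase tail. The YPD profiles were ctk1-del-ypd and rpb1-mut-S2A-matA-ypd, whose polymerase tail carries alanine in place of serine 2. There were 2 arrays per profile, replicates a and b, from separate cultures with the dyes swapped, and 1 array for each pcf11 allele. Each deleted gene was lower in its own profile, by log2 ratios from -4.06 for LRP1 to -2.46 for CTK1 in YPD. PCF11 was -0.99 and -1.24 in its 2 alleles, SEN1 was 0.28 in sen1-mut-ts-1, and the RNA polymerase II gene RPO21 was -1.97 in rpb1-mut-S2A-matA-ypd. The labels name BY4742, a strain of alpha mating type, for every mutant and for the reference. The titles of the rpb1-mut-S2A-matA-ypd arrays say matA, and the study set its SEN1 and PCF11 mutants against wild types of a mating type. Against the strain label, 7 of 7 genes of a cells rose and 4 of 4 genes of alpha cells fell in both pcf11 alleles, sen1-mut-ts-1 and rpb1-mut-S2A-matA-ypd. LYS2, which BY4742 lacks, was higher in those 4 profiles and also, by 3.13 and 2.06, in ctk1-del and ctk1-del-ypd. MET17 was -4.88 in pcf11-mut-ts-2, -4.56 in pcf11-mut-ts-ts2, -4.90 in sen1-mut-ts-1 and -3.99 in rpb1-mut-S2A-matA-ypd. In ctk1-del and ctk1-del-ypd it was 0.35 and -0.0016. These 6 profiles are also those with the lowest RP medians below, and in them the strain background and the mutation cannot be told apart. No wild type grown in YPD was among the arrays, so medium and mutation cannot be told apart in the 2 YPD profiles. All profiles were set against wild type reference RNA shared between arrays, and a p-value here is a test of the mutant arrays against it, which leaves out the spread of wild type cultures.

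Every value below is a log2 ratio of mutant over reference. The main scaling fitted a loess curve through all gene spots of an array, and limma then tested each profile over all 6373 features. A gene is said to have risen or fallen if its adjusted p was under 0.05, and calls that also passed the study's minimum of 1.7-fold, 0.77 on the log2 scale, are named as such.

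RP spots were above background throughout, with 99.2% or more of them in both channels on every array. Of the 100 features with the highest mean log2 signal, 46 were members, and of the top 200, 103 were. Saturation at 65000 or more was seen in the Cy5 channel alone. It touched 163 and 136 of the 254 RP spots on replicates a and b of rtt103-del and between 0 and 25 on the other 20 arrays. No member was saturated on every array. RPS4B, a small subunit protein and the brightest feature of all, had all its spots saturated on 11 arrays, and RPS23B, of the decoding centre, on 8. With saturated spots left out, 70 members kept a value in rtt103-del, with a median of -0.018 against -0.0019 for all 125.

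The density of members among the brightest spots bears on every ratio below, since the loess curve follows whichever genes are most frequent at a given brightness. Before the loess, with arrays centred on the median gene spot, the members of rpb1-mut-S2A-matA-ypd replicate a had a median of -1.02. Those of sen1-mut-ts-1 replicate a had -0.81 and those of ctk1-del replicate a -0.57. After the loess the same 3 medians were -0.22, -0.15 and -0.14. With the RP spots given weight 0, so that the curve was drawn by the other genes, they were -0.76, -0.47 and -0.57. Replicate b of the same profiles, with the dyes swapped, had medians of -0.36, -0.31 and -0.17 before the loess. After it they were -0.17, -0.048 and -0.15, and with RP spots at weight 0 -0.35, -0.15 and -0.50. The size before the loess thus differed between dye orientations, which are also the replicates. The main results are therefore given under the main loess and with RP spots at weight 0.

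**Figure D1:**
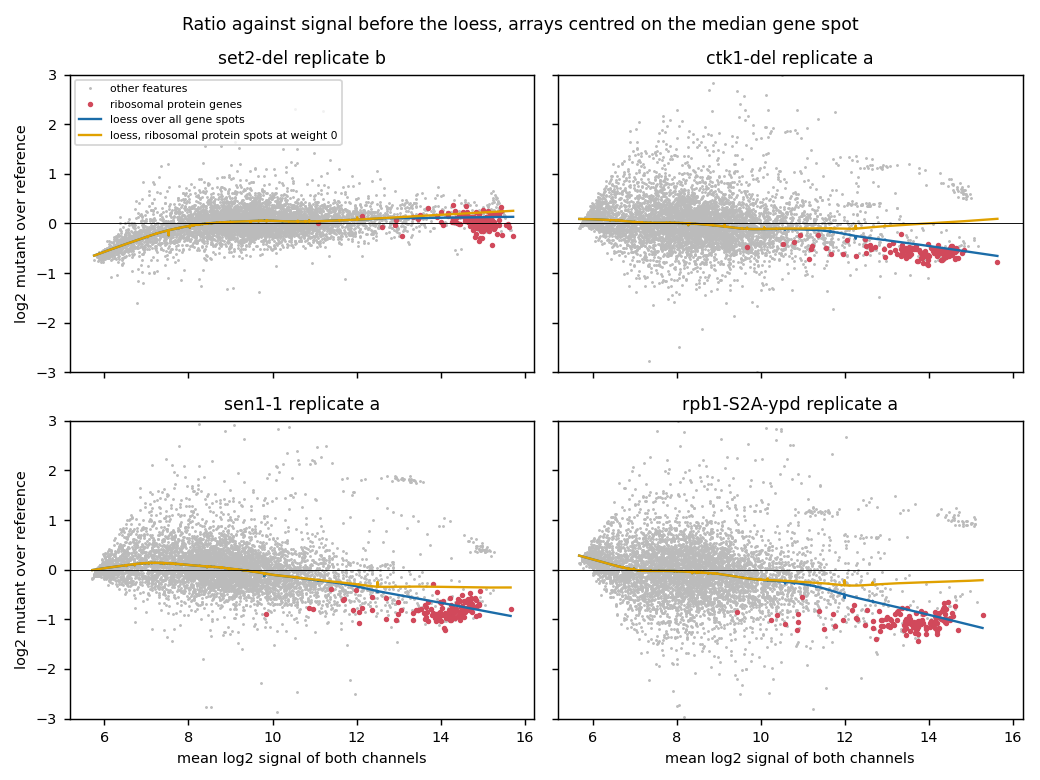
Log2 ratio of mutant over reference (vertical axis) against the mean log2 signal of both channels (horizontal axis) before the loess on 4 arrays, with the 125 ribosomal protein genes in red, other features in grey, and the curves removed by the main loess (blue) and by the loess with ribosomal protein spots at weight 0 (yellow). The 2 curves part only at high signal, where the red points lie, and the median red point of rpb1-mut-S2A-matA-ypd replicate a is at -1.02.

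The RP genes as a group stood below the reference in 6 profiles under every scaling tried: both pcf11 alleles, sen1-mut-ts-1, ctk1-del, ctk1-del-ypd and rpb1-mut-S2A-matA-ypd. The size depended on the scaling. In rpb1-mut-S2A-matA-ypd the median over 125 members was -0.18, against -0.00086 over all features, and -0.55 with RP spots at weight 0. In pcf11-mut-ts-2 it was -0.15 and -0.58, and in ctk1-del -0.13 and -0.54. In pcf11-mut-ts-ts2 it was -0.10 and -0.39, in sen1-mut-ts-1 -0.10 and -0.30, and in ctk1-del-ypd -0.092 and -0.18. The all-feature medians in these profiles lay between -0.0073 and 0.014 with the main loess. Relative to spiked external control RNA, the median of all features was itself -0.77 in rpb1-mut-S2A-matA-ypd and -0.62 in ctk1-del, and the members lay a further -0.64 and -0.34 from it.

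Replicate arrays of these profiles differed in the size of the shift and not in its sign. The medians of replicates a and b were -0.22 and -0.17 in rpb1-mut-S2A-matA-ypd with the main loess, and -0.76 and -0.35 with RP spots at weight 0. Replicate a of this profile had the standard RNA isolation and replicate b the high-throughput one, so protocol and replicate cannot be told apart. In sen1-mut-ts-1 they were -0.15 and -0.048 with the main loess and -0.47 and -0.15 at weight 0, and in ctk1-del -0.57 and -0.50. In ctk1-del-ypd they were -0.049 and -0.089 with the main loess and -0.11 and -0.23 at weight 0. In the other 6 profiles the medians were nearer 0, from -0.078 in set2-del to -0.0019 in rtt103-del with the main loess and from -0.14 to 0.0021 at weight 0. In each of these 6 the sign of the median changed in at least 1 alternative scaling. In set2-del, eaf3-del and rco1-del it turned only with each gene centred on its median over the profiles. That centring sets some profiles above 0 by construction and gives no sign against the reference. With RP spots at weight 0 these medians were -0.14, -0.099 and -0.13, and with median centring -0.077, -0.017 and -0.070. With median centring the 2 arrays of each lay on either side of 0. The 2 arrays of rtt103-del did so with the main loess, at 0.061 and -0.048. The pooled SD of the median between replicate arrays was 0.041 over the 10 profiles with 2 arrays. Left out in turn, replicate a of sen1-mut-ts-1 took its median to -0.045 and replicate b of ctk1-del-ypd took its median to -0.041.

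**Figure D2:**
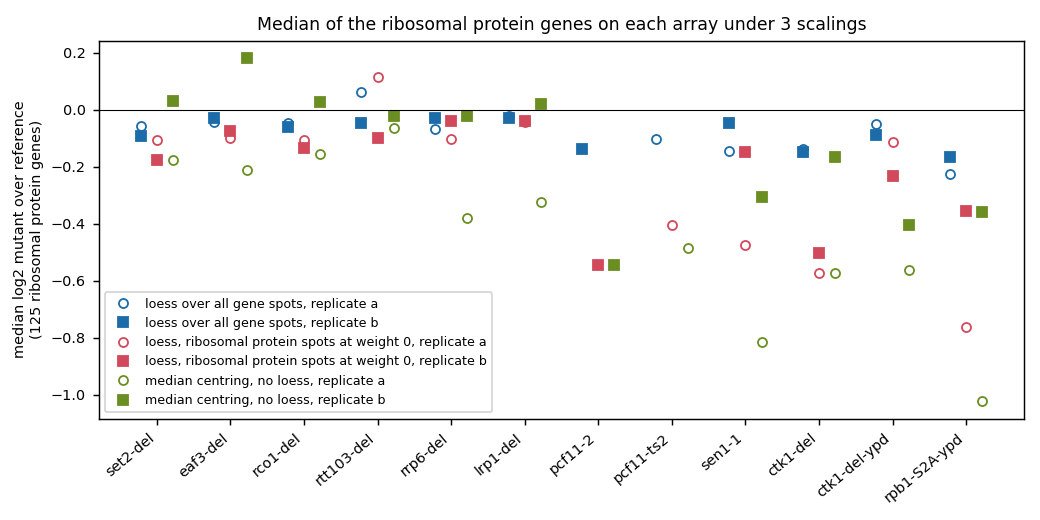
Median log2 mutant over reference of the 125 ribosomal protein genes (vertical axis) on each of the 22 arrays, by profile (horizontal axis), under 3 scalings, with open circles for replicate a and filled squares for replicate b. The blue points of the main loess lie between -0.22 and 0.061, and the red and green points of the last 6 profiles lie lower.

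Calls past the 1.7-fold minimum were few among the members. In pcf11-mut-ts-2, 1 of 125 fell, RPL4A, where 7.63% of all features were called in either direction. In rpb1-mut-S2A-matA-ypd 1 fell, RPS25B, against 12.4% of all features. No member was called in the other 10 profiles, where the share of all features called was 1.62% in set2-del, 0.785% in eaf3-del, 0.910% in rco1-del, 1.27% in rtt103-del, 2.23% in rrp6-del, 1.26% in lrp1-del, 4.03% in pcf11-mut-ts-ts2, 6.50% in sen1-mut-ts-1, 10.1% in ctk1-del and 9.49% in ctk1-del-ypd. In those 10 profiles limma gave an unadjusted p under 0.05, with no fold minimum, for 1 member in rco1-del, the fewest, and for 54 in ctk1-del, the most. With RP spots at weight 0, the members past the fold minimum were 16 in pcf11-mut-ts-2 and 9 in rpb1-mut-S2A-matA-ypd, all of them lower. The share of all features past that minimum is not given at weight 0, so these counts have no background beside them. The 2 calls of the main loess were 1 without replicate a of rpb1-mut-S2A-matA-ypd and 7 without replicate b.

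Without the fold minimum, the members that fell were most numerous in rpb1-mut-S2A-matA-ypd and ctk1-del. With the main loess, 69 of 125 fell in rpb1-mut-S2A-matA-ypd, or 55.2% of the members, where 30.4% of all features fell. In pcf11-mut-ts-2 33 fell, or 26.4% against 17.1% of all features. The members' share was near the background in 4 further profiles: 43 fell in ctk1-del (34.4% against 28.5%), 36 in sen1-mut-ts-1 (28.8% against 23.5%), 32 in ctk1-del-ypd (25.6% against 27.6%) and 10 in pcf11-mut-ts-ts2 (8% against 9.30%). It was under the background in the rest. In rrp6-del 10 fell (8% against 15.0%), in lrp1-del 4 (10.0% of all features), in set2-del 2 (11.6%), in rtt103-del 1 (12.3%), and none in eaf3-del (7.16%) or rco1-del (8.28%). The unadjusted p was under 0.05 for 4 members in eaf3-del and 1 in rco1-del.

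Rises were rarer among the members than among all features in every profile with the main loess. There were 9 in sen1-mut-ts-1 (28.5% of all features), 7 in ctk1-del-ypd (30.8%), 3 in rpb1-mut-S2A-matA-ypd (33.6%), 2 in pcf11-mut-ts-2 (20.4%) and 1 each in rtt103-del (7.14%), rrp6-del (17.2%) and lrp1-del (11.7%). None rose in set2-del (15.1%), eaf3-del (8.02%), rco1-del (10.6%), pcf11-mut-ts-ts2 (12.3%) or ctk1-del (32.8%). With RP spots at weight 0 the only rise left in the 12 profiles was RPL22B in rtt103-del.

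With RP spots at weight 0 the falls reached nearly the whole class in 3 profiles. In ctk1-del 122 of 125 members fell, or 97.6%, where 31.1% of all features did. In rpb1-mut-S2A-matA-ypd 118 fell (31.8% of all features), in pcf11-mut-ts-2 100 (19.3%), in sen1-mut-ts-1 73 (24.7%), in ctk1-del-ypd 37 (28.0%) and in pcf11-mut-ts-ts2 28 (9.79%). In the remaining profiles 8 fell in rrp6-del (15.1%), 3 in lrp1-del (10.0%), 2 in set2-del (11.6%) and none in eaf3-del (7.12%), rco1-del (8.41%) or rtt103-del (12.2%). All 125 members were below 0 in ctk1-del, rpb1-mut-S2A-matA-ypd and both pcf11 alleles under this scaling, and 108 were in ctk1-del-ypd.

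**Figure D3:**
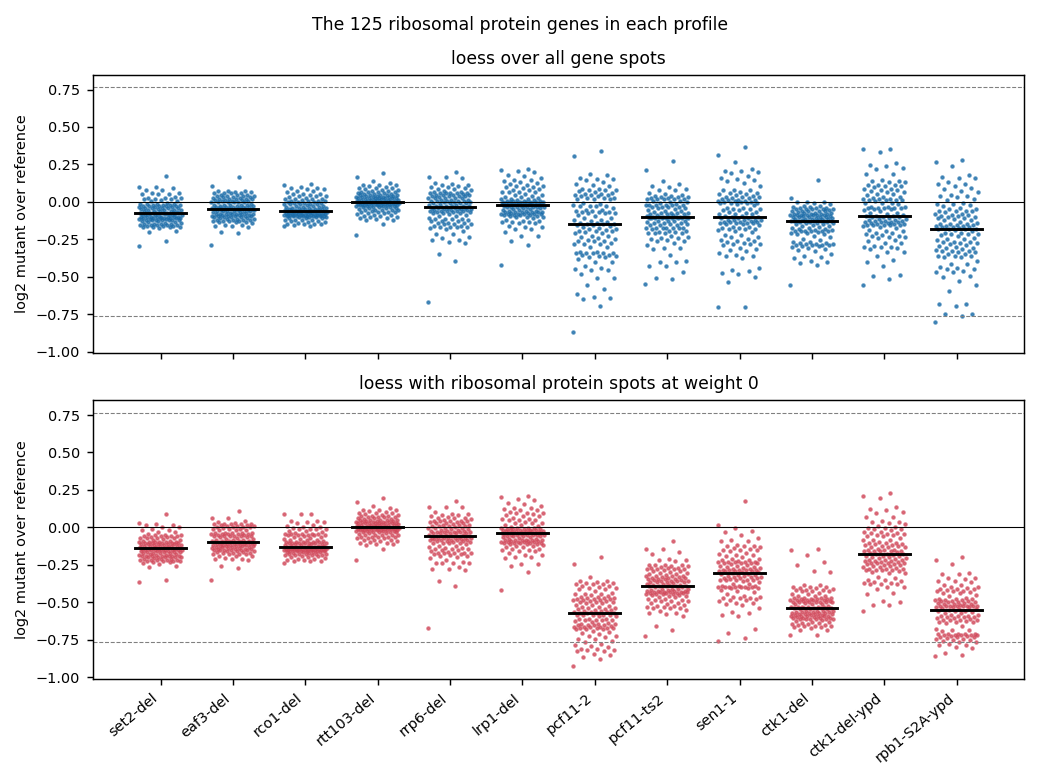
Log2 mutant over reference of each of the 125 ribosomal protein genes (points, vertical axis) in the 12 profiles (horizontal axis) with the main loess (upper panel) and with ribosomal protein spots at weight 0 (lower panel), with the median as a black bar and the 1.7-fold minimum as dashed lines. In ctk1-del the median moves from -0.13 in the upper panel to -0.54 in the lower one, while rrp6-del moves from -0.033 to -0.061.

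Neither the large nor the small subunit genes were the lower ones in every profile. The medians of the 67 large subunit and 53 small subunit genes were -0.17 and -0.21 in rpb1-mut-S2A-matA-ypd, -0.13 and -0.13 in ctk1-del and -0.11 and -0.096 in sen1-mut-ts-1 with the main loess. At weight 0 they were -0.53 and -0.59, -0.53 and -0.57, and -0.29 and -0.32 in the same order. With the main loess they lay further apart in rrp6-del, at -0.00060 and -0.056, or -0.029 and -0.083 at weight 0. In ctk1-del-ypd they were -0.10 and -0.043, and in pcf11-mut-ts-2 -0.13 and -0.18, with the main loess. The SD among the members was 0.22 in rpb1-mut-S2A-matA-ypd and 0.22 in pcf11-mut-ts-2 with the main loess, or 0.14 and 0.14 at weight 0. It was between 0.065 and 0.076 in set2-del, eaf3-del, rco1-del and rtt103-del. All features varied likewise, with an SD of 0.58 and 0.48 in the first 2 profiles and from 0.20 to 0.25 in those 4. In ctk1-del, with its low median, the members' SD was 0.11, and in rrp6-del 0.12. The low members of rpb1-mut-S2A-matA-ypd and pcf11-mut-ts-2 were the dimmer ones. Across the 125 members, which share arrays and curve, Spearman's rho between ratio and signal was 0.76 in rpb1-mut-S2A-matA-ypd and 0.76 in pcf11-mut-ts-2 with the main loess, and 0.36 and 0.25 with RP spots at weight 0. In ctk1-del it turned from 0.53 to -0.55, so the order of members there depended on the curve.

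Among large subunit genes, RPL4A and RPL22B gave the clearest single-gene falls. RPL4A (locus YBR031W) encodes a protein with a long extension that reaches to the peptide exit tunnel, and with the second call rule it fell in 8 of 12 profiles, more than any member but RPS22B, which also fell in 8. Of the other members, 36 passed in no profile, 24 in 1 and 7 in 6 of the 12. RPL4A was also the dimmest member, at place 1258 of 6373 by signal, where the 2 curves agree. Its value in the single pcf11-mut-ts-2 array was -0.84, and the fit gave -0.87 ± 0.13 (SE, limma adjusted p = 0.000169). In sen1-mut-ts-1 the arrays gave -0.80 and -0.60 and the fit -0.70 ± 0.086 (limma adjusted p = 1.95e-05). In ctk1-del, ctk1-del-ypd and rpb1-mut-S2A-matA-ypd the fitted values were -0.41, -0.56 and -0.56, and in pcf11-mut-ts-ts2, rrp6-del and lrp1-del -0.43, -0.39 and -0.26. At weight 0 the 8 values differed from these by less than 0.01. Relative to the other members the gene was not low in ctk1-del under that scaling, where it took place 113 of 125 from the lowest. It took place 60 in rpb1-mut-S2A-matA-ypd and 43 in pcf11-mut-ts-ts2, so its falls there were not set apart from those of the class. In ctk1-del-ypd it took place 1, in rrp6-del 2, and in pcf11-mut-ts-2, sen1-mut-ts-1 and lrp1-del 3. The fall in lrp1-del (limma adjusted p = 0.0483) was lost in 12 of the 20 refits that left out 1 array. Without its own replicate a the value in rrp6-del was -0.25 (adjusted p = 0.184), and without its own replicate b that in ctk1-del was -0.32 (adjusted p = 0.0663).

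RPL22B (YFL034C-A) encodes a protein on the solvent side of the large subunit, and it was the lowest of the 125 members in both exosome profiles under all 3 scalings. On the arrays of rrp6-del it was -0.75 and -0.59, and on those of lrp1-del -0.47 and -0.37. Both profiles had both arrays below 0 with no overlap with the set2-del, eaf3-del, rco1-del and rtt103-del arrays, which ran from -0.028 to 0.21. The fit gave -0.67 ± 0.053 (limma adjusted p = 9.47e-07) in rrp6-del and -0.42 ± 0.053 (limma adjusted p = 9.09e-05) in lrp1-del, and -0.67 and -0.42 at weight 0. The fall in rrp6-del was 1.59-fold, short of the 1.7-fold minimum. Its paralog RPL22A was at -0.26 ± 0.085 (limma adjusted p = 0.0335) and -0.18 ± 0.085 (limma adjusted p = 0.15) in the same profiles. In rtt103-del RPL22B was the highest member at 0.20 ± 0.053 (limma adjusted p = 0.0201), with 0.21 and 0.18 on its arrays, and with 1 array left out it was 0.18 (adjusted p = 0.279) or 0.22 (adjusted p = 0.148). The falls in the exosome profiles passed in all 20 such refits. With the main loess RPL22B fell in 5 profiles in all. One of them was rpb1-mut-S2A-matA-ypd, at -0.60 ± 0.053 (limma adjusted p = 5.81e-07). There it took place 8 of 125 from the lowest, or place 41 at weight 0. At weight 0 it took places 125 in ctk1-del, 112 in pcf11-mut-ts-2, 122 in pcf11-mut-ts-ts2, 109 in sen1-mut-ts-1 and 32 in ctk1-del-ypd.

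RPL39 encodes a very small basic protein of the exit tunnel and was the highest member in both exosome profiles with the main loess. At weight 0 and with median centring it remained so in rrp6-del, but in lrp1-del it took place 124 of 125, under RPS27A. On the arrays it was 0.18 and 0.21 in rrp6-del and 0.32 and 0.12 in lrp1-del. The fit gave 0.20 ± 0.061 (limma adjusted p = 0.0261) and 0.22 ± 0.061 (limma adjusted p = 0.0203) with the main loess, and neither passed with RP spots at weight 0 (adjusted p = 0.143 and 0.111). In lrp1-del the authors' processed ratios turned its sign, to -0.22. Leaving out either array of a profile also ended its call, at 0.27 (adjusted p = 0.0552) and 0.12 (adjusted p = 0.387) in rrp6-del and 0.17 (adjusted p = 0.343) and 0.27 (adjusted p = 0.0968) in lrp1-del.

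Among small subunit genes, RPS25B and RPS22B fell in the most profiles. RPS25B (YLR333C) encodes a protein of the small subunit head and fell in 7 profiles. Its arrays read -0.93 and -0.67 in rpb1-mut-S2A-matA-ypd, -0.73 and -0.68 in sen1-mut-ts-1 and -0.60 and -0.52 in ctk1-del. All 6 of these were below every array of set2-del, eaf3-del, rco1-del, rtt103-del, rrp6-del and lrp1-del, the lowest of which was -0.33. The fit gave -0.80 ± 0.084 (limma adjusted p = 2.72e-06), -0.71 ± 0.084 (limma adjusted p = 1.54e-05) and -0.56 ± 0.084 (limma adjusted p = 8.42e-05), and -0.86, -0.74 and -0.59 at weight 0. At weight 0 these were places 1, 2 and 37 of 125 from the lowest, and the class median in ctk1-del was -0.54. The other falls were -0.65 in pcf11-mut-ts-2, -0.43 in pcf11-mut-ts-ts2, -0.50 in ctk1-del-ypd and -0.26 in rrp6-del, the last of which was lost without either of its arrays, at -0.28 (adjusted p = 0.174) and -0.24 (adjusted p = 0.238). At weight 0 RPS25B took place 21 in pcf11-mut-ts-2, 19 in pcf11-mut-ts-ts2, 3 in ctk1-del-ypd and 7 in rrp6-del. In sen1-mut-ts-1 its paralog RPS25A was low as well, at -0.54 ± 0.069 (limma adjusted p = 2.85e-05).

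RPS22B (YLR367W) encodes a small subunit protein and holds the small nucleolar RNA gene SNR44 within its bounds in the R64 table. It was the only member besides RPL7A, which holds SNR39, with a snoRNA gene inside it. It fell in 8 of 12 profiles. Its arrays read -0.50 and -0.51 in rpb1-mut-S2A-matA-ypd, -0.52 and -0.41 in sen1-mut-ts-1, -0.31 and -0.23 in rrp6-del and -0.28 and -0.19 in lrp1-del, and the single arrays read -0.55 in pcf11-mut-ts-2 and -0.27 in pcf11-mut-ts-ts2. Each pair of arrays lay on one side of 0. The fit gave -0.50 ± 0.055 (limma adjusted p = 3.97e-06) in the first of these and -0.27 ± 0.055 (limma adjusted p = 0.00257) in rrp6-del. In ctk1-del and ctk1-del-ypd the values were -0.19 and -0.31. With 1 of the profile's own arrays left out, the calls in ctk1-del and lrp1-del were lost either way, at -0.22 (adjusted p = 0.0529), -0.17 (adjusted p = 0.139), -0.19 (adjusted p = 0.237) and -0.28 (adjusted p = 0.0581). The call in rrp6-del was lost without replicate a, at -0.23 (adjusted p = 0.081), and that in pcf11-mut-ts-ts2 without either ctk1-del array, at -0.26 (adjusted p = 0.052) both times. At weight 0 it fell in the same 8 profiles, by values between -0.82 and -0.24. The class median in ctk1-del was -0.54 under that scaling, and RPS22B took place 105 of 125 from the lowest there. In rrp6-del, lrp1-del, sen1-mut-ts-1 and pcf11-mut-ts-2 it took places 4, 5, 7 and 9. In ctk1-del-ypd, rpb1-mut-S2A-matA-ypd and pcf11-mut-ts-ts2 it took places 12, 21 and 35. RPL7A passed the test in none of the 12 profiles with the main loess, with values between -0.14 and 0.056.

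**Figure D4:**
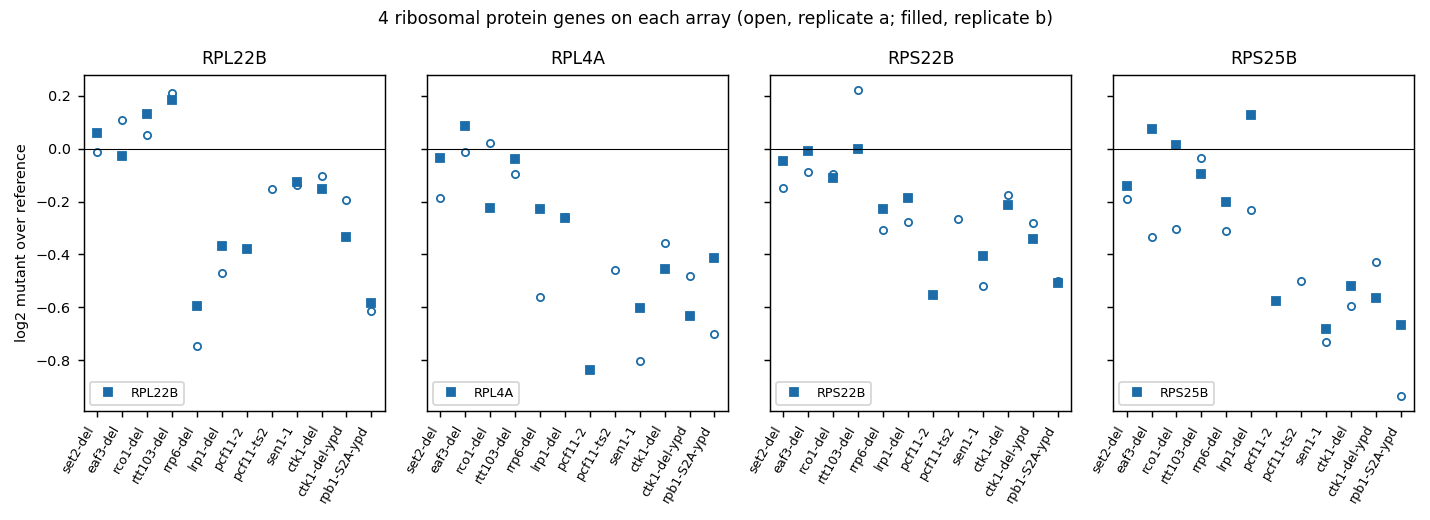
Log2 mutant over reference (vertical axis) of RPL22B, RPL4A, RPS22B and RPS25B on each of the 22 arrays by profile (horizontal axis), with the main loess, open circles for replicate a and filled squares for replicate b. RPL22B is lowest on the rrp6-del arrays, at -0.75 and -0.59, and RPS25B on rpb1-mut-S2A-matA-ypd replicate a, at -0.93.

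The highest and lowest members of the remaining profiles are given as values. In set2-del RPL26B, of the exit tunnel, was lowest at -0.29 ± 0.074 (limma adjusted p = 0.0111), or -0.19 (adjusted p = 0.286) without replicate a, and RPS24A highest at 0.17. In eaf3-del RPS4B was lowest at -0.29 and RPS1A highest at 0.16, and in rco1-del RPL34B was lowest at -0.16 and RPL15B highest at 0.12. The RPS4B arrays of eaf3-del read 0.021 and -0.60, so that value rests on 1 array of a feature that was often saturated. In rtt103-del RPS14B was lowest at -0.22 ± 0.073 (limma adjusted p = 0.0495), from arrays at -0.47 and 0.020, and the call was lost in 13 of the 20 refits without 1 array, with -0.044 (adjusted p = 0.891) once replicate a was out. In pcf11-mut-ts-ts2 RPS27A was lowest at -0.55 ± 0.16 (limma adjusted p = 0.025) and RPS4A highest at 0.27.

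Every rise seen with the main loess, other than RPL22B in rtt103-del, missed the threshold under the other curve. RPS1A and RPS1B, which encode a protein at the mRNA exit of the small subunit, were 0.27 and 0.31 in sen1-mut-ts-1 and 0.34 and 0.30 in pcf11-mut-ts-2. At weight 0 the same values were -0.0076, 0.018, -0.20 and -0.24, and none passed. RPL41A and RPL41B, which encode the smallest ribosomal protein, were 0.26 and 0.28 in rpb1-mut-S2A-matA-ypd with the main loess and -0.24 and -0.22 at weight 0. In ctk1-del-ypd they were 0.35 and 0.33, and 0.23 and 0.21 at weight 0, where neither passed. RPS4B, the highest member of ctk1-del-ypd at 0.35 ± 0.11 (limma adjusted p = 0.0131), was 0.20 at weight 0 and -0.18 with median centring. Without 1 of its arrays it was 0.39 (adjusted p = 0.0531) or 0.31 (adjusted p = 0.139).

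The stalk genes encode the acidic proteins that recruit translation factors to the ribosome, with RPP0 as their anchor. RPP0 fell in 5 profiles with the main loess: -0.28 ± 0.057 (limma adjusted p = 0.000928) in rpb1-mut-S2A-matA-ypd, -0.25 in pcf11-mut-ts-2, -0.21 in ctk1-del-ypd, -0.19 in sen1-mut-ts-1 and -0.17 in rrp6-del. Its arrays in sen1-mut-ts-1 read -0.41 and 0.023, and without replicate a it was -0.12 (adjusted p = 0.31). The call in rrp6-del was lost in 5 of 20 refits without 1 array, to -0.072 (adjusted p = 0.582) without its replicate a, and that in ctk1-del-ypd without its replicate b, at -0.18 (adjusted p = 0.119). RPP2A fell in sen1-mut-ts-1 at -0.22 and in rpb1-mut-S2A-matA-ypd at -0.28, and RPP1A fell in ctk1-del at -0.21 and in rpb1-mut-S2A-matA-ypd at -0.18. None of these 4 calls held in all refits without 1 array: without replicate a of its profile RPP2A was -0.16 (adjusted p = 0.253) and -0.19 (adjusted p = 0.138), RPP1A in ctk1-del was lost without either of its arrays, at -0.17 (adjusted p = 0.245) and -0.26 (adjusted p = 0.0884), and RPP1A in rpb1-mut-S2A-matA-ypd was lost in 12 of 20 refits. RPP1B and RPP2B passed in no profile, with values between -0.17 and 0.21. At weight 0 all 5 fell in ctk1-del, between -0.65 and -0.41, and in rpb1-mut-S2A-matA-ypd, between -0.66 and -0.48.

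The A and B genes of a pair were compared on each array as the ratio of A minus the ratio of B, which leaves out any shift the whole class shares. Paralogs with nearly the same sequence can share signal on long oligonucleotide probes, so a difference between them may be understated and its absence is uncertain. The median absolute difference over 48 pairs ran from 0.041 in rtt103-del to 0.13 in pcf11-mut-ts-2. Between 2 members of the class it was 0.060 and 0.21 in these profiles, and it was larger than within pairs in every profile. In rpb1-mut-S2A-matA-ypd it was 0.21, against 0.11 within pairs. The counts of pairs that follow have no such background beside them. Pairs more than 0.3 apart numbered 5 in sen1-mut-ts-1, 6 in rpb1-mut-S2A-matA-ypd, 4 in ctk1-del-ypd, 3 in ctk1-del, 2 in set2-del and 1 in rrp6-del, and none in the other 4 profiles with 2 arrays. At weight 0 they numbered 4 in sen1-mut-ts-1, 2 in rpb1-mut-S2A-matA-ypd, 3 in ctk1-del-ypd, 3 in ctk1-del, 2 in set2-del and 1 in rrp6-del, so the profile with the most such pairs depended on the curve. The authors' processed ratios put 57 pairs past that distance over the 10 profiles and print-tip loess 51, against 21 here. Over the 48 pairs, which share probes and arrays, the differences of the 2 replicate arrays had a Pearson's r of 0.73 in sen1-mut-ts-1, 0.71 in rpb1-mut-S2A-matA-ypd, 0.61 in ctk1-del and 0.53 in ctk1-del-ypd. At weight 0 it was 0.63, 0.27, 0.48 and 0.44 in the same order, and thus much lower in rpb1-mut-S2A-matA-ypd. In set2-del, eaf3-del, rco1-del and rtt103-del it was between -0.63 and -0.26 with the main loess and between -0.65 and -0.24 at weight 0, so that the small differences there did not repeat between dye orientations.

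The largest difference was in the RPS14 pair, which encodes a protein of the small subunit platform and whose B gene is known to be held down by its own protein. In sen1-mut-ts-1 RPS14A (YCR031C) was -0.54 and -0.47 on the 2 arrays while RPS14B (YJL191W) was 0.35 and 0.38. The 2 genes did not overlap, and A minus B was -0.87 ± 0.11 (SE). The fit gave -0.50 ± 0.076 for RPS14A (limma adjusted p = 0.000124) and 0.37 ± 0.073 for RPS14B (limma adjusted p = 0.00103). The rise of RPS14B became 0.17 at weight 0 (adjusted p = 0.0592) and -0.071 with median centring, and was 0.29 (adjusted p = 0.0561) without replicate a, whereas A minus B stayed at -0.76 ± 0.095 and -0.75. RPS14B took place 125 of 125 from the lowest under all 3 scalings in this profile.

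The same pair differed by -0.55 ± 0.11 in ctk1-del and -0.37 ± 0.11 in ctk1-del-ypd, and by -0.37 ± 0.095 and -0.34 ± 0.095 at weight 0. In ctk1-del RPS14A read -0.39 and -0.42 and RPS14B 0.16 and 0.12, and in ctk1-del-ypd -0.35 and -0.25 and 0.025 and 0.10. In rpb1-mut-S2A-matA-ypd, by contrast, both genes were below 0 on both arrays, RPS14A at -0.51 and -0.14 and RPS14B at -0.30 and -0.14, and A minus B was -0.11 ± 0.11. In the other profiles the difference lay between -0.091 and 0.17. In the R64 table the nearest gene upstream of RPS14A on its own strand is the snoRNA gene SNR189. Of the 125 members, RPL7A, with SNR39B, is the only other with a snoRNA gene as its upstream neighbour on the same strand.

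The RPS28 pair, which encodes a protein near the mRNA exit channel of the small subunit, differed most in rpb1-mut-S2A-matA-ypd. RPS28A read -0.15 and -0.080 and RPS28B (YLR264W) -0.69 and -0.67, with no overlap, and A minus B was 0.57 ± 0.039. At weight 0 it was 0.50 ± 0.040. In ctk1-del the difference was 0.36 ± 0.039, or 0.24 ± 0.040 at weight 0, and in the single array of pcf11-mut-ts-2 it was 0.33 ± 0.057, or 0.34 ± 0.058 at weight 0. In these 3 profiles RPS28B was the lower gene under both scalings. The 2 genes have nearly the same brightness, at places 246 and 276 of 6373 by signal, as do RPS14A and RPS14B at 229 and 186.

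The other 4 pairs of the largest differences joined a dim gene with a bright one, and the dim gene was the lower one each time. RPS27A and RPS27B, of a zinc-binding small subunit protein, are at places 598 and 78 by signal and differed by -0.64 ± 0.14 in rpb1-mut-S2A-matA-ypd, with -0.51 and -0.77 on its arrays, and by -0.20 ± 0.15 at weight 0. RPL16A and RPL16B, at places 605 and 132, differed by -0.55 ± 0.16 in that profile and by -0.24 ± 0.15 at weight 0. RPS25A and RPS25B, at places 111 and 330, differed by 0.49 ± 0.11 and 0.14 ± 0.13. RPL4A and RPL4B, at places 1258 and 160, differed by -0.42 ± 0.080 in sen1-mut-ts-1 and -0.23 ± 0.085 at weight 0. With median centring the 4 differences were -0.12, -0.12, 0.076 and -0.014. All 4 differences were smaller under these 2 scalings, and in RPS27, RPL16 and RPS25 the difference at weight 0 was within 2 SE of 0. The RPL22 pair of rrp6-del, outside the 6, is named because RPL22B was the lowest member there: its difference was 0.41 ± 0.068 and 0.39 ± 0.070 at weight 0, with the dimmer B gene lower in rrp6-del and the A gene lower, by -0.29 ± 0.068, in rtt103-del.

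**Figure D5:**
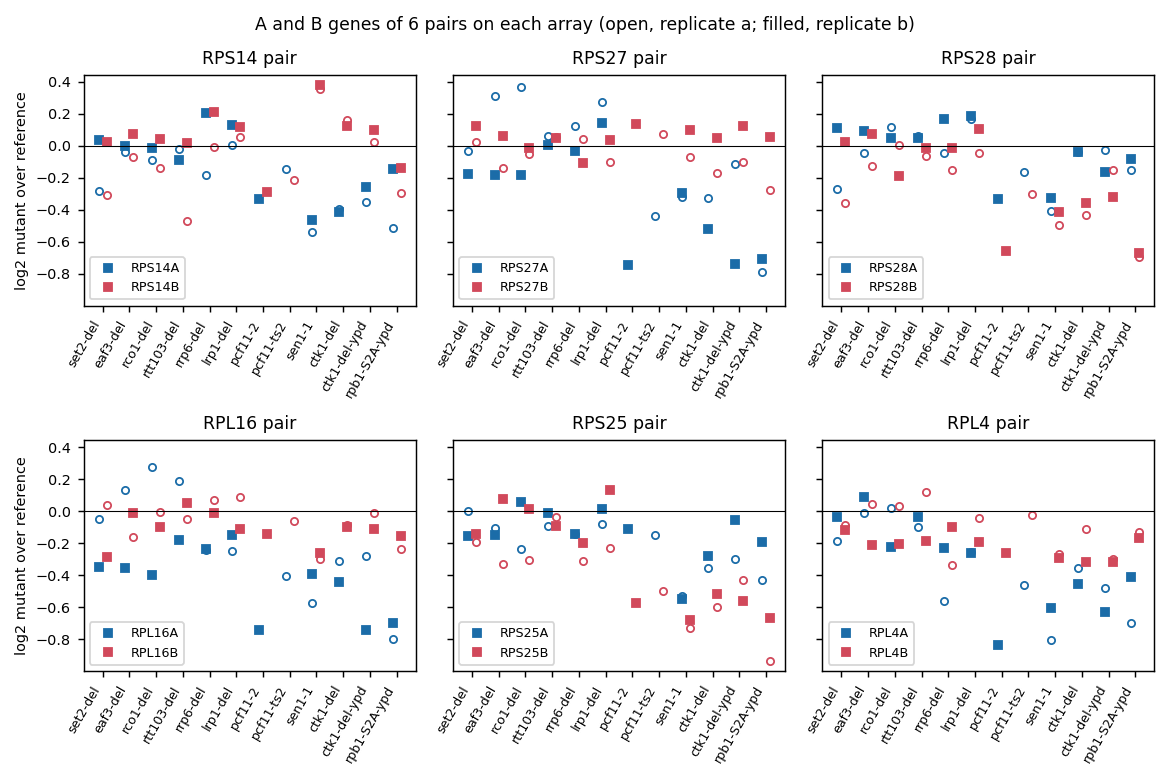
Log2 mutant over reference (vertical axis) of the A gene (blue) and the B gene (red) of 6 pairs on each of the 22 arrays by profile (horizontal axis), with the main loess, open circles for replicate a and filled squares for replicate b. In sen1-mut-ts-1 RPS14A lies at -0.54 and -0.47 and RPS14B at 0.35 and 0.38, the widest gap of the 6 panels that repeats on both arrays.

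Profiles were also set directly against each other in 6 contrasts of the same fit, in which the reference cancels. No member differed by the 1.7-fold minimum in any of them with the main loess, and the largest difference was -0.45 for RPS28B. In rpb1-mut-S2A-matA-ypd minus ctk1-del-ypd, both in YPD, the members' median was -0.12 (-0.39 at weight 0), and 4 members were lower in the former, where 12.9% of all features differed: RPS28B, RPL22B, RPS9A and RPS31. RPS28B differed by -0.45 ± 0.11 (limma adjusted p = 0.0174) and RPL22B by -0.33 ± 0.075 (limma adjusted p = 0.011), and both also passed at weight 0 but not with median centring. At weight 0 they were -0.53 and -0.35, beside the members' median of -0.39. The 2 profiles differ in mating type and in MET17 (-3.99 against -0.0016) as well as in mutation. Replicate b of rpb1-mut-S2A-matA-ypd alone of the 4 arrays had the high-throughput RNA isolation.

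In ctk1-del-ypd minus ctk1-del the median was 0.075, 0.35 at weight 0 and -0.11 with median centring, so the order of the 2 profiles was not fixed. Both ctk1-del arrays had the high-throughput RNA isolation and both ctk1-del-ypd arrays the standard one, so medium and isolation protocol cannot be told apart here. Without replicate a of ctk1-del-ypd the median was 0.030 and without replicate b 0.12. RPS26B and RPL19B passed, both higher in ctk1-del-ypd, where 16.5% of all features differed. In sen1-mut-ts-1 minus ctk1-del the median was 0.072, 0.23 at weight 0 and -0.18 with median centring. There 7 members were higher in sen1-mut-ts-1 and 2 lower, RPS22B and RPS28A, where 41.8% of all features differed. These 2 profiles differ in the genes of mating type and in MET17 as well, so strain and mutation cannot be told apart in this contrast. In set2-del minus ctk1-del the median was 0.081, or 0.39 at weight 0 and 0.31 with median centring, and 3 members passed (35.4% of all features). RPS25B was higher in set2-del by 0.39 ± 0.12 (limma adjusted p = 0.0216), and it passed under all 3 scalings. At weight 0 it differed by 0.38, close to the members' median of 0.39, so it was not set apart from the class there. The set2-del arrays had the standard RNA isolation and those of ctk1-del the high-throughput one. LYS2 differed as well, at -0.051 in set2-del and 3.13 in ctk1-del. Mutation, strain and protocol therefore cannot be told apart in this contrast. No member passed in rrp6-del minus lrp1-del, where 0.596% of all features did, or in eaf3-del minus rco1-del, where 0.0314% did. The unadjusted limma p was under 0.05 for 1 and 0 members in those 2 contrasts. RPL22B was -0.25 ± 0.075 in rrp6-del minus lrp1-del (limma adjusted p = 0.272), a difference that missed the threshold.

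Other genes of ribosome production were read from 4 lists. Of 32 measured translation factors none passed the fold minimum in any profile, and without it 15 fell and 1 rose in ctk1-del, where 28.5% of all features fell and 32.8% rose. In rpb1-mut-S2A-matA-ypd 14 fell and 5 rose, against 30.4% and 33.6% of all features. The medians were -0.17 and -0.17. Of 23 measured regulators of RP genes none passed the fold minimum either. In ctk1-del-ypd 12 fell and 3 rose, against 27.6% and 30.8% of all features, in rpb1-mut-S2A-matA-ypd 12 fell and 4 rose, and in ctk1-del 9 fell and 6 rose, with medians of -0.27, -0.31 and -0.12. Of 20 measured chaperones and carriers of ribosomal proteins, 14 fell and none rose in ctk1-del, with a median of -0.27. In rpb1-mut-S2A-matA-ypd 3 of the 20 passed the fold minimum, all lower, where 12.4% of all features were called: BCP1, the dedicated chaperone of Rpl23, at -1.09 ± 0.15 (limma adjusted p = 3.43e-05), ARD1, a subunit of an N-terminal acetyltransferase, at -1.04 ± 0.050 (limma adjusted p = 2.06e-09), and the import receptor KAP123 at -0.82 ± 0.11 (limma adjusted p = 2.66e-05). Past it elsewhere were TSR4, the chaperone of Rps2, in pcf11-mut-ts-2 at -0.81 ± 0.16 (7.63% of all features) and BCP1 in ctk1-del at -0.77 ± 0.15 (10.1%). Of 19 subunits of RNA polymerases I and III, which transcribe ribosomal RNA, 15 fell and none rose in ctk1-del, with a median of -0.31. Those past the fold minimum were RPC34 in ctk1-del, RPC34 and RPA135 in rpb1-mut-S2A-matA-ypd and RPC31 in both pcf11 alleles, at -1.27 ± 0.11 and -1.22 ± 0.11. The medians of the regulators and of the polymerase subunits changed by less than 0.01 at weight 0 in all 12 profiles, while that of the translation factors in ctk1-del went to -0.29 and that of the chaperones to -0.44. No gene of the 4 lists passed the fold minimum in 3 or more profiles.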

How the data were processed

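RNA of 12 mutant profiles was hybridised with reference RNA on 22 dual-channel arrays of 70-mer probes, and the deposited scanner files hold the intensity of each spot and its local background, with no normalization by the authors. The deposited log2 ratios, normalized and corrected for dye bias by the authors (limma per the labels, version 2.12.0 for 6 arrays and none given for 16), were used as an alternative only, and 6 of their 22 columns were turned to mutant over reference after comparison with the scanner values. Their scale and centring are not stated. Here the background was corrected with normexp (offset 50), and each array was normalized by loess (span 0.3, 4 iterations) over 12776 gene spots with control spots at weight 0. Spots were averaged to probes and probes to 6373 features, and log2 ratios were tested with limma 3.58.1 in R 4.3.3, with 1 coefficient per profile and a dye term, 9 residual and 3.7 prior degrees of freedom, and Benjamini-Hochberg adjustment over all features of a profile or contrast. Figures were drawn with matplotlib 3.10.9. The dye orientation is also the replicate letter, so this term is a replicate block by construction. It rests on the swap of dyes and not on shared cultures. The 2 pcf11 profiles, with 1 array each, borrow the spread of the others. Paralog differences came from the same model on each pair and carry a standard error and no p-value. The number of arrays limits the precision. Through the RefSeq table of assembly R64, 58 probe symbols were updated, and none of its coordinates are given.

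The named genes were, by rule, the highest and lowest member of each profile or those past the fold minimum, the 6 pairs with the largest difference repeated on both arrays of a profile, the stalk genes, and the members that passed in the most profiles. RPL22B, RPL39, RPS28B and the risen RPS1 and RPL41 genes were described further after their values had been seen. The members, lists and tests were chosen with earlier results of these data known. Alternatives were other background corrections and normalizations, loess with RP spots at weight 0, centring on external controls or on the 12 profiles, and leaving out saturated spots, dim features, the dye term, the arrays of the other medium or 1 array at a time.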

Additional observations from a re-analysis of the deposited data

Results flagged for a closer look

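In 6 contrasts between profiles, 18 member values differed with a limma adjusted p under 0.05, each a test of the difference itself. With RP spots at weight 0, 15 of them passed, with median centring 4, and none changed sign. No gene among them reached the 1.7-fold minimum. The values are log2 differences with the main loess.

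In ctk1-del-ypd minus ctk1-del, RPL19B was 0.31 and RPS26B 0.23, both higher in ctk1-del-ypd. The medium and the RNA isolation protocol both differ between these profiles and cannot be told apart. In rpb1-mut-S2A-matA-ypd minus ctk1-del-ypd, RPS28B was -0.45, RPL22B -0.33, RPS9A -0.31 and RPS31, which encodes a fusion with ubiquitin, -0.31. The mating type and MET17 differ between these 2 profiles.

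In sen1-mut-ts-1 minus ctk1-del, the genes higher in sen1-mut-ts-1 were RPL19B at 0.40, RPS1B at 0.37, RPS1A at 0.33, RPL35A at 0.31, RPS26B at 0.30, RPS24B at 0.29 and RPS17A at 0.28. With median centring these 7 lay between 0.016 and 0.16 and none passed. The 2 lower genes, RPS28A at -0.32 and RPS22B at -0.27, passed with median centring and not at weight 0. The genes of mating type and MET17 differ between these profiles as well.

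In set2-del minus ctk1-del the isolation protocol and LYS2 differ as well. RPS25B at 0.39 and RPS21B at 0.24 were higher in set2-del and passed under all 3 scalings, at 0.38 and 0.56 with RP spots at weight 0. The members' median at weight 0 was 0.39 in this contrast. RPS14B was lower in set2-del at -0.29 and -0.0070 at weight 0.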

How the results depend on the processing

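The RP median of the 6 lowest profiles stayed below 0 in every alternative run. In 1 alternative, with each gene centred on its median over the 12 profiles, it came close to 0 in ctk1-del-ypd and sen1-mut-ts-1. The size followed the scaling. The pooled SD of the median between replicate arrays, 0.041, was the measure for a move. With RP spots at weight 0 the medians became -0.14 in set2-del, -0.099 in eaf3-del, -0.13 in rco1-del, -0.58 in pcf11-mut-ts-2, -0.39 in pcf11-mut-ts-ts2, -0.30 in sen1-mut-ts-1, -0.54 in ctk1-del, -0.18 in ctk1-del-ypd and -0.55 in rpb1-mut-S2A-matA-ypd, and the contrasts 0.35 in ctk1-del-ypd minus ctk1-del, -0.39 in rpb1-mut-S2A-matA-ypd minus ctk1-del-ypd, 0.23 in sen1-mut-ts-1 minus ctk1-del and 0.39 in set2-del minus ctk1-del. With median centring they were -0.054 in rtt103-del, -0.19 in rrp6-del, -0.16 in lrp1-del, -0.71 in pcf11-mut-ts-2, -0.33 in pcf11-mut-ts-ts2, -0.55 in sen1-mut-ts-1, -0.36 in ctk1-del, -0.49 in ctk1-del-ypd and -0.68 in rpb1-mut-S2A-matA-ypd, and -0.11 in ctk1-del-ypd minus ctk1-del, -0.20 in rpb1-mut-S2A-matA-ypd minus ctk1-del-ypd, -0.18 in sen1-mut-ts-1 minus ctk1-del, 0.045 in eaf3-del minus rco1-del and 0.31 in set2-del minus ctk1-del. With normexp offset 0 they were -0.24 in pcf11-mut-ts-2, -0.18 in pcf11-mut-ts-ts2, -0.15 in sen1-mut-ts-1, -0.25 in ctk1-del, -0.27 in rpb1-mut-S2A-matA-ypd, 0.18 in ctk1-del-ypd minus ctk1-del, -0.18 in rpb1-mut-S2A-matA-ypd minus ctk1-del-ypd, 0.12 in sen1-mut-ts-1 minus ctk1-del and 0.19 in set2-del minus ctk1-del, and with print-tip loess pcf11-mut-ts-2 was -0.20. Centred on external controls, where the median of all features moved too, they were -0.42 in set2-del, -0.29 in eaf3-del, 0.16 in rrp6-del, 0.17 in lrp1-del, -1.43 in pcf11-mut-ts-2, -1.05 in pcf11-mut-ts-ts2, -0.94 in sen1-mut-ts-1, -0.97 in ctk1-del, -0.68 in ctk1-del-ypd and -1.41 in rpb1-mut-S2A-matA-ypd, and 0.30 in ctk1-del-ypd minus ctk1-del, -0.74 in rpb1-mut-S2A-matA-ypd minus ctk1-del-ypd, -0.25 in eaf3-del minus rco1-del and 0.57 in set2-del minus ctk1-del. Over the 12 profiles the all-feature median then ran from -0.77 to 0.35, and the members lay from -0.70 to -0.013 of it. With each gene centred on the 12 profiles, which makes a ratio relative to the other mutants, they were 0.0053 in set2-del, 0.020 in eaf3-del, 0.028 in rco1-del, 0.076 in rtt103-del, 0.040 in rrp6-del, 0.049 in lrp1-del, -0.057 in pcf11-mut-ts-2, -0.022 in pcf11-mut-ts-ts2, -0.0065 in sen1-mut-ts-1, -0.068 in ctk1-del, -0.0027 in ctk1-del-ypd and -0.12 in rpb1-mut-S2A-matA-ypd. The authors' processed ratios gave -0.0064 in rco1-del, -0.061 in ctk1-del, -0.0086 in ctk1-del-ypd minus ctk1-del, 0.0040 in sen1-mut-ts-1 minus ctk1-del and 0.025 in rrp6-del minus lrp1-del.

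Calls of 125 members in 12 profiles with the fold minimum numbered 2, and 5 with normexp offset 0, 92 with median centring, 25 at weight 0, 22 with print-tip loess, 4 in the authors' processed ratios, 639 with external control centring, 0 with each gene centred on the profiles and 264 with no fold minimum. Falls without the minimum numbered 240, and 604 with median centring, 491 at weight 0, 719 with external control centring and 77 with each gene centred. Apart from falls at weight 0, the share of all features called is not given for these alternatives. With external controls the median of all features moved too, so the counts there are not a result about the members alone. Rises numbered 24, and 11 with normexp offset 0, 0 with median centring, 1 at weight 0, 55 in the processed ratios, 0 with external control centring, 12 without the replicate block and 45 with each gene centred. Without the replicate block, falls numbered 187 and the median in pcf11-mut-ts-2 was -0.14, and 15 of 51 tested member values no longer passed. The A and B pairs over 0.3 apart numbered 21, and 51 with print-tip loess and 57 in the processed ratios. Of the 6 pair differences none changed sign, and 21 of 60 alternatives moved one by more than its standard error. Among 51 tested member values, alternatives other than leaving out an array kept 491 calls, ended 101 and turned the sign of 20. The turned values were, for RPS1A in pcf11-mut-ts-2, -0.33 with median centring, -0.20 at weight 0 and -1.04 with external controls. In the same order RPL41B in rpb1-mut-S2A-matA-ypd was -0.36, -0.22 and -1.09. RPS14B in sen1-mut-ts-1 was -0.071 with median centring and -0.46 with external controls, and RPS4B in ctk1-del-ypd was -0.18, -0.38 and, with print-tip loess, -0.0044. RPP2A in sen1-mut-ts-1 was 0.0022 with print-tip loess and RPL39 in lrp1-del -0.22 in the processed ratios. With external controls RPL4A in lrp1-del was 0.039 and RPP0 in rrp6-del 0.039. With each gene centred on the profiles RPL4A was 0.0056 in rrp6-del and 0.14 in lrp1-del, RPS22B 0.015 in lrp1-del and 0.053 in ctk1-del, and RPS25B 0.087 in rrp6-del. Only the construction of the scalings is known here, and the cause of each turn was not tested.

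With 1 array left out at a time the median ran from -0.047 to 0.049 in rtt103-del, from -0.14 to -0.045 in sen1-mut-ts-1, from -0.12 to -0.041 in ctk1-del-ypd, from 0.030 to 0.12 in ctk1-del-ypd minus ctk1-del, from -0.0029 to 0.11 in sen1-mut-ts-1 minus ctk1-del and from -0.064 to 0.029 in rrp6-del minus lrp1-del. The extremes came without either rtt103-del array, without replicate a of sen1-mut-ts-1, without replicate b of ctk1-del-ypd, without replicate a or b of ctk1-del-ypd in its contrast, without replicate b of sen1-mut-ts-1, and without replicate a or b of rrp6-del. Calls with the fold minimum ran from 1 to 7, falls from 191 to 252, rises from 13 (without replicate b of sen1-mut-ts-1) to 25 and pairs over 0.3 apart from 20 to 27. Of the 51 member values 25 passed in all 20 such refits, 84 refits lost a call and none turned a sign. Leaving out 1 of the 2 arrays of a profile leaves an array assumed to vary like the other profiles. Saturated spots bear most on rtt103-del, and the ratio of a saturated spot is a bound.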
